A study of Mus musculus with 12 samples.

Results

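The Serpin B family was described in mouse skin and in ultraviolet-induced skin carcinomas. The members were the 26 protein-coding genes whose symbol is Serpinb followed by a number, out of 34303 gene symbols and 22311 protein-coding symbols in the deposited table. That rule uses no measured value, although it was chosen with earlier results of these data known. A further 2 entries, Serpinb10 and Serpinb1-ps1, carried another gene category and were left out. The files placed 11 members on chromosome 1 and 15 on chromosome 13.

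Serpins are protease inhibitors that offer a protease an exposed loop as bait. When the loop is cut, the serpin changes shape and traps the protease in a covalent complex. Clade B members lack a classical secretion signal and act mostly inside cells, where they protect the cell from its own lysosomal, granule or surface proteases. Stratified epithelia are a major site of the cluster that mouse chromosome 1 carries, while the chromosome 13 genes have multiplied in mice and include inhibitors of the proteases of neutrophils, mast cells and cytotoxic lymphocytes.

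RNA sequencing covered 4 groups of C57Bl6 mice in 12 libraries. TAp63-/- cutaneous squamous cell carcinoma (cSCC, 4 libraries) and WT cSCC (2 libraries) came from animals over 35 weeks of age given chronic ultraviolet radiation of 2.5 kJ/m2 on 3 occasions a week. TAp63-/- skin (3 libraries) and WT skin (3 libraries) were untreated dorsal skin of animals 4 weeks old. TAp63 stands for the p63 isoforms that begin with the transactivation domain, and the labels name no Cre driver or cell type for their loss. Tumour and skin therefore differed in age and radiation as well as in tissue, and these cannot be told apart. The titles carry a different identifier for every library but do not say that it stands for a separate animal. If it does not, the p-values measure only the spread between these libraries, which may be technical.

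The unit is FPKM, a fragment count divided by transcript length and library size, in a table whose 12 columns share a single distribution, and read depth is unknown. Trp63, read as the whole gene, stood at 109 to 258 FPKM in TAp63-/- cSCC, 97.3 to 141 in WT cSCC, 84.5 to 111 in TAp63-/- skin and 100.4 to 119 in WT skin. A whole-gene value does not separate the deleted isoforms from the others and so checks no genotype. By Xist and Y-linked genes, 5 tumours were female, while TAp63-/- cSCC 1 and all 6 skin libraries were male. Basal keratinocyte markers summed to 7677 to 19178 FPKM in the tumours and 2408 to 3373 FPKM in skin, so the epithelial label held in both tissues. Skeletal muscle markers summed to 58.1 to 660.1 FPKM in tumours and 5434 to 10589 FPKM in skin, and fibroblast markers to 508 to 1452 FPKM in tumours and 1608 to 4806 FPKM in skin. In bulk tissue, fewer cells of a type and less RNA per cell cannot be told apart, and the part of cell make-up in the results that follow was not tested.

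On chromosome 1 the genes ran in the order Serpinb5, Serpinb12, Serpinb13, Serpinb3a, Serpinb3d, Serpinb3b, Serpinb3c, Serpinb11, Serpinb7, Serpinb2 and Serpinb8 (mm10, chr1:106861173-107608909). A total of 16 members reached 5 FPKM in a library and 9 held 1 FPKM or more in every library. A further 5 stayed under 1 FPKM in every library. A gene was tested if 2 or more libraries held 1 FPKM or more, and 17 members met that rule. Of these, 4 (Serpinb3a, Serpinb3d, Serpinb6b and Serpinb1b) met it through tumour libraries only. Changes are differences of log2(FPKM + 1) with standard errors, and "rose" or "fell" means that limma's adjusted p was below 0.05 over all 14752 tested genes.

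The promoters of 5 members are shown. Serpinb3a, Serpinb3b and Serpinb7 changed in both genotypes, and Serpinb3d and Serpinb12 were highest in the same tumours as Serpinb3a without passing. Serpinb6e also changed in both genotypes and is not shown. Each is the 300 bases of RefSeq on GRCm38.p6 that run from 250 bases before the annotated start to 50 bases after it. They are written 5′ to 3′ on the gene's own strand. Capitals mark TATAAA or its reverse complement and the AP-1 motif TGANTCA, which reads the same on both strands. The Serpinb6e window held neither motif. Another Serpinb12 window, chr1:106938707-106939006, is not shown and held TATAAA without TGANTCA.
Serpinb3a, chr1:107052254-107052553, minus strand: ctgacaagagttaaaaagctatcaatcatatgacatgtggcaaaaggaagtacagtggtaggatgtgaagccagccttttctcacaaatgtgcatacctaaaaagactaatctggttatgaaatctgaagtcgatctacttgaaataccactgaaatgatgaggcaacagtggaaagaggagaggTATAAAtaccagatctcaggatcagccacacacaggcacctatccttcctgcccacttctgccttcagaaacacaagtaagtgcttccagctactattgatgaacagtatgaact
Serpinb3b, chr1:107161065-107161364, minus strand: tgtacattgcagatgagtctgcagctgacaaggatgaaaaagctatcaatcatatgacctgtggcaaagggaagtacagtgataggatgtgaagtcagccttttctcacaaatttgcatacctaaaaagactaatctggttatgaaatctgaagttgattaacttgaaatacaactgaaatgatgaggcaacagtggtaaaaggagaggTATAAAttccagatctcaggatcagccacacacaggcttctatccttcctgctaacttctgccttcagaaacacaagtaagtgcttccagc
Serpinb3d, chr1:107083431-107083730, minus strand: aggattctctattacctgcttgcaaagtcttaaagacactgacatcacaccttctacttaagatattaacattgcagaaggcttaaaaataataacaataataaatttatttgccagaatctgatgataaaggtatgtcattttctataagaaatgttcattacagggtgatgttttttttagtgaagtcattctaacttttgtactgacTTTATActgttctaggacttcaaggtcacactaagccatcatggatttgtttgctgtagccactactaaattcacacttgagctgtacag
Serpinb12, chr1:106934199-106934498, plus strand: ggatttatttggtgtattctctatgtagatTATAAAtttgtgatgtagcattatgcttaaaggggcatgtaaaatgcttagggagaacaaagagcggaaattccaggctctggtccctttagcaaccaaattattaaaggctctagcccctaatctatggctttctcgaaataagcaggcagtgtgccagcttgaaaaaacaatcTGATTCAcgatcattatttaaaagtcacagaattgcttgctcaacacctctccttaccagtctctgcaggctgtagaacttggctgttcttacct
Serpinb7, chr1:107422439-107422738, plus strand: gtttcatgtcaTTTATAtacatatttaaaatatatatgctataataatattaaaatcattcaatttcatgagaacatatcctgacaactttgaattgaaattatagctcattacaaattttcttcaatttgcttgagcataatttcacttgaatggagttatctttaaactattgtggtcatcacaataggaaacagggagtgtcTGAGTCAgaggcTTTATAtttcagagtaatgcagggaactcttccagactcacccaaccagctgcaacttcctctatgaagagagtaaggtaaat
The Serpinb3a and Serpinb3b windows were 79.3% identical and each held TATAAA, starting 65 bases before the annotated start in Serpinb3a and 41 bases before it in Serpinb3b. Serpinb3d matched Serpinb3a at 50.4% of bases, no closer than Serpinb5 matched Serpinb3a (50.9%). The Serpinb3d window held the reverse complement 40 bases before the start. The Serpinb7 window, which lies inside the locus that the deposited table gives to Serpinb7, held TGANTCA 45 bases before the start and the reverse complement of TATAAA 33 bases before it.

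RefSeq windows were found for 24 of the 26 members, 30 windows in all; Serpinb13 and Serpinb1a had none. TGANTCA stood in 7 of these 30 windows, against 7.81% of all 32851 windows. The 7 windows belonged to Serpinb5, Serpinb12, Serpinb11, Serpinb7, Serpinb2 and Serpinb8, all on chromosome 1. TATAAA stood in 11 of the 30 windows, against 13.6% of all windows, and those included Serpinb3a to Serpinb3d. The Serpinb2 windows overlap and hold the same TGANTCA and the same TATAAA, so each of these sites is counted more than once. Windows of close copies, such as Serpinb3b and Serpinb3c (90% identical), are also counted separately. The C/EBP motif TTGCNNAA stood in 4 of the 30 windows and in 10.8% of all, and a p53-family motif in 0 of the 30 and in 8.36% of all. These motifs were searched on both strands as letters only, and say nothing about binding.

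Serpinb3a, Serpinb3b, Serpinb3c and Serpinb3d are the mouse relatives of the human squamous cell carcinoma antigens, which inhibit lysosomal cysteine proteases and chymotrypsin-like serine proteases. Serpinb3a and Serpinb3b rose in the tumours of both genotypes, while Serpinb3d did not pass and Serpinb3c was too low to test. Serpinb3a (mm10, chr1:107045587-107052337) stood at 325, 5.4, 3.16 and 18.6 FPKM in TAp63-/- cSCC 1 to 4, and at 0, 0.543 and 0.246 FPKM in TAp63-/- skin. In WT cSCC it stood at 17.7 and 58.9 FPKM, against 0.29, 0.225 and 0.0111 FPKM in WT skin. Every tumour lay above every skin library, and within TAp63-/- cSCC the level in library 1 was far above the rest. The log2 change was 4.03 ± 1.18 (SE, adjusted p = 0.0274) in TAp63-/- mice and 4.84 ± 1.41 (adjusted p = 0.0488) in WT mice. Both calls lay near the threshold. Without TAp63-/- cSCC 1 the TAp63-/- change was 2.69 (adjusted p = 0.00715). Without TAp63-/- cSCC 4 the adjusted p was 0.0528, and without a single skin library of that genotype it ran from 0.0638 to 0.0861. With only the TAp63-/- groups in the fit it was 0.074. In WT mice the adjusted p ran from 0.099 to 0.169 when any single library was left out, was 0.0613 with genes of at least 0.1 FPKM tested and was 0.0502 after median-ratio rescaling. With sex as a covariate the change was 8.04 (adjusted p = 0.00088) in TAp63-/- mice and 10.18 (adjusted p = 0.00388) in WT mice, in a fit where TAp63-/- cSCC 1, the only male tumour, carries the sex term.

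Serpinb3b (chr1:107153940-107278361) showed the same direction with a higher floor in skin. Its level was 44.6, 7.72, 6.43 and 73.9 FPKM in TAp63-/- cSCC and 3.41, 3.45 and 3.52 FPKM in TAp63-/- skin. WT cSCC gave 13.7 and 40.6 FPKM, against 0.483, 0.972 and 1.43 FPKM in WT skin. The groups did not overlap in either genotype, and the rise was 2.28 ± 0.73 on the log2 scale in TAp63-/- mice (adjusted p = 0.0403) and 3.69 ± 0.88 in WT mice (adjusted p = 0.0224). The TAp63-/- call was lost without TAp63-/- cSCC 1 (adjusted p = 0.0878), without TAp63-/- cSCC 4 (0.0803), without any single library of TAp63-/- skin (0.0894 to 0.103) and with only the TAp63-/- groups in the fit (0.0858). With sex as a covariate it was lost in TAp63-/- mice (adjusted p = 0.0687) and in WT mice (0.0869). In WT mice, leaving out any single library raised the adjusted p to between 0.0567 and 0.104.

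Serpinb3d (chr1:107078193-107083480) was read in fewer tumours, at 15.9, 0.0196, 0 and 1.78 FPKM in TAp63-/- cSCC and 0.131 and 2.88 FPKM in WT cSCC. It was listed at 0 in 4 of the 6 skin libraries and reached 0.134 FPKM in the others. Neither change passed (1.36 ± 0.83, adjusted p = 0.249 in TAp63-/- mice and 1.01 ± 0.99, adjusted p = 0.551 in WT mice). Serpinb3c peaked at 1.7 FPKM, also in TAp63-/- cSCC 1. These genes share sequence, which the authors' counting could have split between copies. Of the 50-base words in the transcripts of Serpinb3b, 14.3% also stood in another member, and the share was 9.44% for Serpinb3c, 6.51% for Serpinb3a and 4.97% for Serpinb3d. A further 11% of Serpinb3a words and 12% of Serpinb3d words stood in genes outside the family, chiefly Gm8080. The Serpinb3b locus in the table also spans Serpinb3c, so the single members are less certain than their sum.

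Summed over the 4 Serpinb3 genes, the level was 388, 13.2, 9.59 and 94.7 FPKM in TAp63-/- cSCC, against 3.41, 4.07 and 3.76 FPKM in TAp63-/- skin. It was 31.6 and 102 FPKM in WT cSCC, against 0.772, 1.34 and 1.44 FPKM in WT skin. The tumours thus differed among themselves far more than the skin libraries did. In TAp63-/- cSCC 1, where the sum was highest, S100a8 and S100a9 were also highest, at 15539 and 5585 FPKM, and the neutrophil list summed to 21142 FPKM against 453 to 5119.8 FPKM in the other tumours. In skin the list summed to 7.65 to 137 FPKM. Of its 10 genes, Ly6g, Mpo and Camp stayed under 1 FPKM in every library. Cxcr2 stood at 3.68 to 9.06 FPKM in tumours and 0.0667 to 0.517 FPKM in skin. Csf3r stood at 2.49 to 15.8 FPKM in tumours and 0.851 to 1.94 FPKM in skin. Cxcr2, Csf3r and Retnlg were highest in TAp63-/- cSCC 2, at 9.06, 15.8 and 19.4 FPKM. In TAp63-/- cSCC 1 they stood at 8.56, 6.13 and 1.15 FPKM. Ngp was highest in TAp63-/- cSCC 1, at 1.03 FPKM, and Ltf in WT cSCC 1, at 3.79 FPKM. Keratinocytes also make S100a8 and S100a9. The part of neutrophils in the Serpinb3 values was not tested.

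Serpinb12, which in humans inhibits trypsin-like serine proteases, followed a similar order across the tumours. It stood at 101, 4.35, 6.83 and 26.2 FPKM in TAp63-/- cSCC and 3.41, 6.09 and 13.2 FPKM in TAp63-/- skin. WT cSCC gave 17.9 and 102 FPKM, against 1.48, 3.47 and 4.55 FPKM in WT skin. The libraries TAp63-/- cSCC 1, WT cSCC 2, TAp63-/- cSCC 4 and WT cSCC 1 held the 4 highest tumour values of both Serpinb12 and Serpinb3a. The change did not pass in either genotype, at 1.28 ± 0.94 (adjusted p = 0.337) in TAp63-/- mice and 3.48 ± 1.12 (adjusted p = 0.0693) in WT mice. Without TAp63-/- cSCC 1 the TAp63-/- change was 0.45 (adjusted p = 0.684), and without WT cSCC 2 the WT change was 2.26 (adjusted p = 0.290). The WT change passed with only the WT groups in the fit (adjusted p = 0.0489) and with array weights (0.0442). With sex as a covariate both passed, at 3.74 (adjusted p = 0.0459) in TAp63-/- mice and 6.77 (adjusted p = 0.0418) in WT mice. In that fit TAp63-/- cSCC 1, the only male tumour, carries the sex term, and it held the highest Serpinb12 value of TAp63-/- cSCC.

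**Figure D1:**
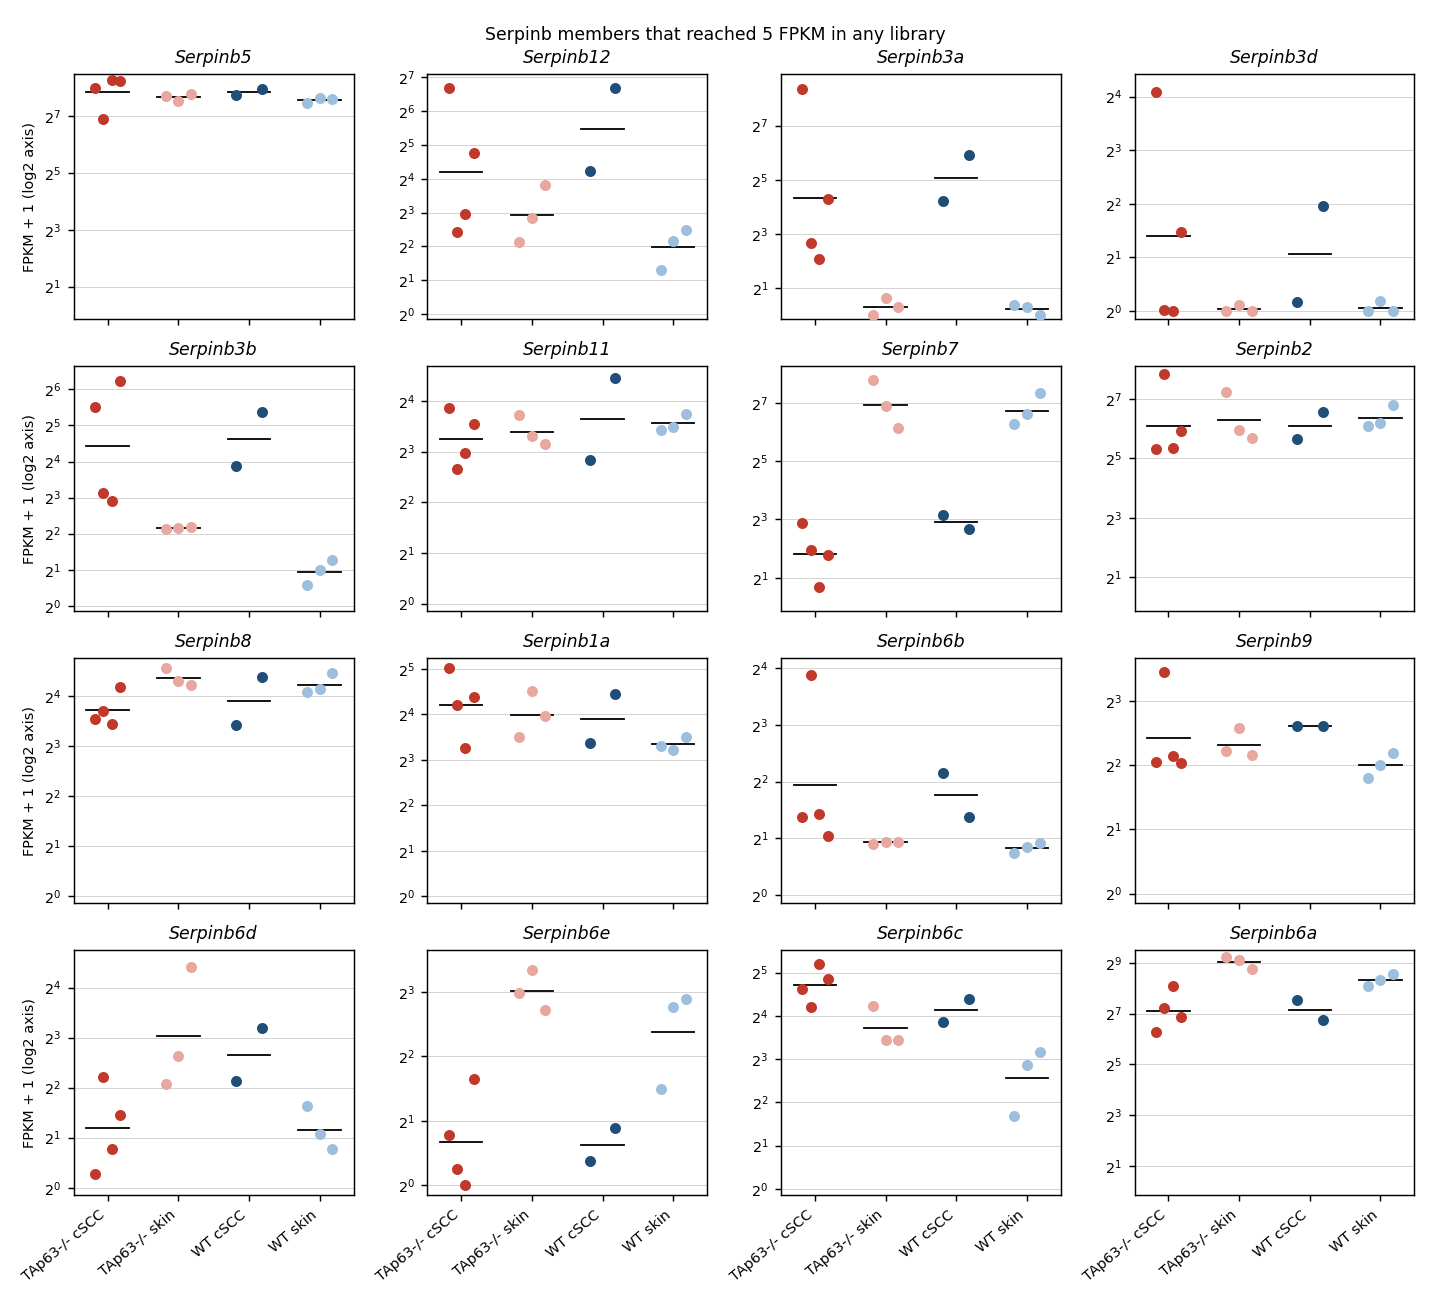
FPKM + 1 on a log2 axis for the 16 members that reached 5 FPKM in a library, with a point for each library and a line at the mean of log2(FPKM + 1) in each of the 4 groups. Serpinb3a, at 3.16 FPKM or more in every tumour and 0.543 FPKM or less in every skin library, and Serpinb7, at 7.89 FPKM or less in every tumour and 69.4 FPKM or more in every skin library, separate the tissues in opposite directions.

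Serpinb7 ran the other way and fell in both genotypes. Its human counterpart is best known from the upper epidermis, since loss of SERPINB7 causes a palmoplantar keratosis. Serpinb7 (chr1:107399655-107452689) fell to 6.41, 2.86, 0.59 and 2.42 FPKM in TAp63-/- cSCC, against 217, 118 and 69.4 FPKM in TAp63-/- skin. WT cSCC held 7.89 and 5.38 FPKM, against 75.9, 96.7 and 159 FPKM in WT skin. No tumour came near any skin library. The log2 change was -5.11 ± 0.50 (adjusted p = 6.0e-05) in TAp63-/- mice and -3.82 ± 0.60 (adjusted p = 0.00336) in WT mice, or 34.6-fold and 14.1-fold lower on the FPKM + 1 scale. With sex as a covariate the change was -4.04 (adjusted p = 0.00522) in TAp63-/- mice and -2.39 (adjusted p = 0.169) in WT mice, in a fit where the single male tumour carries the sex term. Suprabasal keratinocyte markers, which mark the layers where Serpinb7 is known to act, summed to 2179 to 6903 FPKM in TAp63-/- cSCC, against 7919 to 14300.5 FPKM in TAp63-/- skin. In WT cSCC they summed to 4272 and 10996 FPKM, against 4665 to 9969 FPKM in WT skin, where the groups overlapped. In WT cSCC 2, which held the highest suprabasal sum of the tumours, Serpinb7 was 5.38 FPKM. The genes of that list did not move together in either genotype. In TAp63-/- mice Krt10, Krtdap, Sbsn and Lor were lower in every tumour than in any skin library, while Krt1, Flg and Ivl overlapped. Krt1 was 1158 and 3855 FPKM in WT cSCC, against 378 to 817 FPKM in WT skin. Flg was 279 and 821 FPKM, against 80.4 to 150.3 FPKM. Lor was lower, at 27.1 and 67.4 FPKM, against 89.6 to 157 FPKM. In WT mice Krt10, Krtdap, Sbsn and Ivl overlapped.

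Serpinb5, also called maspin, a member without protease-inhibiting activity that was first described as a tumour suppressor in breast, was the most even of the abundant genes. Its level was 256, 118, 312 and 300.3 FPKM in TAp63-/- cSCC and 211, 185 and 222 FPKM in TAp63-/- skin. In WT cSCC it was 217 and 250.2 FPKM, against 177, 199 and 193 FPKM in WT skin. The changes were 0.17 ± 0.30 (adjusted p = 0.711) in TAp63-/- mice and 0.30 ± 0.36 (adjusted p = 0.631) in WT mice. TAp63-/- cSCC 2 was the lowest of all 12 libraries, and without it the TAp63-/- change was 0.49 (adjusted p = 0.0431). That library also had the lowest basal keratinocyte sum of the tumours, 7677 FPKM. Of the genes in that sum only Krt14 was lowest there, at 4268 FPKM. Among the tumours Krt5 was lowest in TAp63-/- cSCC 4, at 2545 FPKM. Itga6, Itgb4 and Col17a1 were lowest in WT cSCC 2, at 94.2, 34.4 and 96.9 FPKM, where Serpinb5 was 250.2 FPKM. In skin the basal keratinocyte sum was lower still, at 2408 to 3373 FPKM, with Serpinb5 at 177 to 222 FPKM. The part of basal cells in the Serpinb5 values was not tested.

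Serpinb11, a mouse inhibitor of trypsin-like proteases, stood at 5.3 to 13.5 FPKM in TAp63-/- cSCC and 7.87 to 12.1 FPKM in TAp63-/- skin. It gave 6.17 and 21 FPKM in WT cSCC, against 9.79 to 12.4 FPKM in WT skin, and neither change passed (adjusted p = 0.820 in TAp63-/- mice and 0.916 in WT mice). Serpinb8, which in humans inhibits furin, stood at 10.6, 11.9, 9.88 and 17 FPKM in TAp63-/- cSCC, below all of 22.6, 18.6 and 17.6 FPKM in TAp63-/- skin. That difference of -0.65 ± 0.25 did not pass (adjusted p = 0.0787), although it did without TAp63-/- cSCC 4 (adjusted p = 0.0442). In WT cSCC Serpinb8 gave 9.64 and 19.7 FPKM, against 15.8, 16.7 and 20.9 FPKM in WT skin (adjusted p = 0.519).

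Serpinb2 encodes plasminogen activator inhibitor type 2, an inhibitor of the urokinase that Plau encodes. It stood at 38.4, 229, 39.7 and 59.7 FPKM in TAp63-/- cSCC and 150.1, 60.7 and 50.7 FPKM in TAp63-/- skin. WT cSCC gave 49.6 and 92.6 FPKM, against 66.4, 72.3 and 109 FPKM in WT skin. The groups overlapped in both genotypes, and the changes were -0.19 ± 0.59 (adjusted p = 0.840) in TAp63-/- mice and -0.24 ± 0.71 (adjusted p = 0.860) in WT mice. The 229 FPKM came from TAp63-/- cSCC 2, whose macrophage markers summed to 956 FPKM against 144 to 359 FPKM in the other tumours. Macrophages are a known source of this gene, and their part in the value was not tested. Of the 50-base words of Serpinb2, 10.4% also stood in Serpinb10, which overlaps it.

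Other genes of plasminogen activation moved while Serpinb2 did not pass. Of 6 listed genes 4 were tested. In TAp63-/- mice 2 rose and 0 fell, and in WT mice 1 rose and 0 fell, where 13.0% of all tested genes rose in TAp63-/- mice and 4.66% in WT mice. Plau rose by 1.60 ± 0.33 in TAp63-/- mice (adjusted p = 0.00539) and by 1.56 ± 0.40 in WT mice (adjusted p = 0.0291). Its receptor Plaur rose by 1.62 ± 0.52 in TAp63-/- mice (adjusted p = 0.0392) and changed by 1.29 ± 0.62 in WT mice without passing (adjusted p = 0.198). Plat, the tissue-type activator, and Serpine2, a serpin of another clade, did not pass in either genotype.

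On chromosome 13 every called change was in a Serpinb6 gene. Serpinb6a, an inhibitor of cathepsin G and other serine proteases, was the most abundant member in every skin library. It (chr13:33917918-34002794) fell to 77.2, 148, 269 and 116 FPKM in TAp63-/- cSCC, against 594, 552 and 428 FPKM in TAp63-/- skin. The groups did not overlap and the change was -1.91 ± 0.37 (adjusted p = 0.00355), kept in 15 of 15 alternative settings. In WT cSCC it stood at 187 and 107 FPKM, below all of 270.3, 317 and 378 FPKM in WT skin, with a difference of -1.17 ± 0.44 that did not pass (adjusted p = 0.111). The difference between those changes was -0.75 ± 0.57 (unadjusted p = 0.22 and adjusted p = 0.9998 by limma's interaction term), so the genotypes were not shown to differ.

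Serpinb6e stood at 0.711, 0.198, 0 and 2.13 FPKM in TAp63-/- cSCC, against 6.85, 9.13 and 5.56 FPKM in TAp63-/- skin. WT cSCC gave 0.302 and 0.846 FPKM, below 1.83, 5.8 and 6.39 FPKM in WT skin. It fell in both genotypes, by 2.34 ± 0.43 in TAp63-/- mice (adjusted p = 0.0026) and by 1.75 ± 0.51 in WT mice (adjusted p = 0.0491). With sex as a covariate the TAp63-/- adjusted p was 0.056. The WT call was lost in 10 of 13 alternatives, with an adjusted p of up to 0.35. Among these were the fits without WT cSCC 1 (0.272), WT cSCC 2 (0.0731), WT skin 2 (0.146) and WT skin 3 (0.159).

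Serpinb6c ran the other way. It stood at 23.6, 17.5, 36 and 28.1 FPKM in TAp63-/- cSCC and 17.9, 9.86 and 9.93 FPKM in TAp63-/- skin, with a change of 1.01 ± 0.37 that did not pass (adjusted p = 0.0635). In WT cSCC it rose to 13.6 and 19.9 FPKM, against 2.21, 6.29 and 7.98 FPKM in WT skin (1.55 ± 0.44, adjusted p = 0.0455). The WT call was kept in 5 of 13 alternatives and was lost without either WT cSCC library, without WT skin 1, without WT skin 2 or with sex as a covariate (adjusted p = 0.343), among others. The TAp63-/- change passed without TAp63-/- cSCC 2 (adjusted p = 0.0413). Of Serpinb6c words of 50 bases, 8.13% stood in another member, chiefly Serpinb6b, while for Serpinb6a that share was 0.506%.

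Serpinb6d stood at 0.214, 3.66, 0.718 and 1.75 FPKM in TAp63-/- cSCC and 3.2, 5.22 and 20.2 FPKM in TAp63-/- skin, and fell by 1.85 ± 0.58 on the log2 scale (adjusted p = 0.0366) although a tumour and a skin library overlapped. In WT cSCC it stood at 3.39 and 8.11 FPKM, above 2.11, 1.09 and 0.721 FPKM in WT skin, with a change of 1.50 ± 0.69 that did not pass (adjusted p = 0.186). The interaction was -3.35 ± 0.91 with an unadjusted p of 0.00349 in limma, and it did not pass over all genes (adjusted p = 0.953). Without TAp63-/- skin 3, which held the 20.2 FPKM, the TAp63-/- change was -1.17 (adjusted p = 0.137). The call was also lost without TAp63-/- cSCC 1, 3 or 4 or TAp63-/- skin 2 (adjusted p of 0.0564 to 0.0796), with only the TAp63-/- groups in the fit (0.0792) and with sex as a covariate (0.0577). TAp63-/- skin 3 also had a hair marker sum of 3814 FPKM, against 13.3 and 1293 FPKM in the other TAp63-/- skin libraries. In WT skin 1 to 3 the hair sum was 4841, 2716 and 435 FPKM, with Serpinb6d at 2.11, 1.09 and 0.721 FPKM. The part of hair in the Serpinb6d values was not tested.

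Serpinb6b, which in mice inhibits granzyme A, stood at 1.6, 13.8, 1.7 and 1.06 FPKM in TAp63-/- cSCC, above 0.868, 0.919 and 0.905 FPKM in TAp63-/- skin. WT cSCC gave 3.42 and 1.6 FPKM, against 0.657, 0.789 and 0.888 FPKM in WT skin. Every tumour was above every skin library, by a small margin in most, and neither change passed (1.01 ± 0.56, adjusted p = 0.199 in TAp63-/- mice and 0.93 ± 0.67, adjusted p = 0.393 in WT mice). Serpinb9, an inhibitor of granzyme B, stood at 3.14, 9.95, 3.44 and 3.09 FPKM in TAp63-/- cSCC and 3.67, 4.96 and 3.47 FPKM in TAp63-/- skin (adjusted p = 0.840). WT cSCC gave 5.15 and 5.13 FPKM, against 2.47, 3 and 3.59 FPKM in WT skin (adjusted p = 0.318). The high Serpinb6b and Serpinb9 values, like that of Serpinb2, came from TAp63-/- cSCC 2. Its mast cell markers summed to 41.8 FPKM, against 5.04 to 20.1 FPKM in the other tumours. In skin that sum was 14.4 to 34 FPKM, with Serpinb6b at 0.919 FPKM or less. The cytotoxic lymphocyte markers of TAp63-/- cSCC 2 summed to 20.2 FPKM, within the 2.85 to 49.1 FPKM of the other tumours. The part of mast cells and cytotoxic lymphocytes was not tested.

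Serpinb1a, an inhibitor of the neutrophil proteases elastase, cathepsin G and proteinase 3, stood at 31.2, 17.4, 8.51 and 19.9 FPKM in TAp63-/- cSCC and 10.3, 21.7 and 14.7 FPKM in TAp63-/- skin. WT cSCC gave 9.3 and 20.7 FPKM, against 8.92, 8.3 and 10.4 FPKM in WT skin. The groups overlapped, and the changes were 0.22 ± 0.40 (adjusted p = 0.719) in TAp63-/- mice and 0.56 ± 0.48 (adjusted p = 0.483) in WT mice. Serpinb1b reached at most 1.49 FPKM, in TAp63-/- cSCC 3, and did not pass.

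The 9 members that were not tested were Serpinb13, Serpinb3c, Serpinb1c, Serpinb9b, Serpinb9c, Serpinb9d, Serpinb9e, Serpinb9f and Serpinb9g. Serpinb13, which in humans inhibits the cysteine cathepsins L and K, reached at most 0.462 FPKM in a tumour and 0.663 FPKM in skin. Serpinb9b, a mouse inhibitor of granzyme M, stayed between 0.0386 and 0.742 FPKM. Serpinb9c, Serpinb9d and Serpinb9g were listed at 0 in all 6 skin libraries, and Serpinb9e reached 1.78 FPKM in WT cSCC 1. The Serpinb9d to Serpinb9g copies shared 28.4% to 52.8% of their 50-base words with another member, so their values cannot be assigned to single genes with any certainty.

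Counted over the family, 2 members rose and 4 fell in TAp63-/- cSCC against TAp63-/- skin, 11 did not pass and 9 were not tested. Over all 14752 tested genes, 27.2% were called, 13.0% higher and 14.2% lower. In WT cSCC against WT skin 3 rose, 2 fell, 12 did not pass and 9 were not tested, against 11.4% called over all genes, 4.66% higher and 6.77% lower. Serpinb3a, Serpinb3b, Serpinb7 and Serpinb6e were the 4 members called the same way in both genotypes. Of the 17 tested members, 4 (Serpinb3a, Serpinb3d, Serpinb6b and Serpinb1b) met the filter through tumour libraries only and 0 through skin libraries only. Such genes can hardly show a fall, so the counts and medians of tested members favour a rise. The median log2 change of the 17 tested members was 0.17 in TAp63-/- mice and 0.56 in WT mice, and over all genes tested it was 0.10 in TAp63-/- mice and 0.04 in WT mice. Over all 26 members it was 0.06 in TAp63-/- mice and 0.43 in WT mice, where over all protein-coding symbols it was 0 in both. Without regard to any p, 3 members lay higher and 4 lower with no overlap between TAp63-/- cSCC and TAp63-/- skin, where the shares over tested genes were 17.8% and 16.2%. In the smaller WT comparison 14 lay higher, 5 of them untested, and 3 lower, where the shares were 27.3% and 25.5%.

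**Figure D2:**
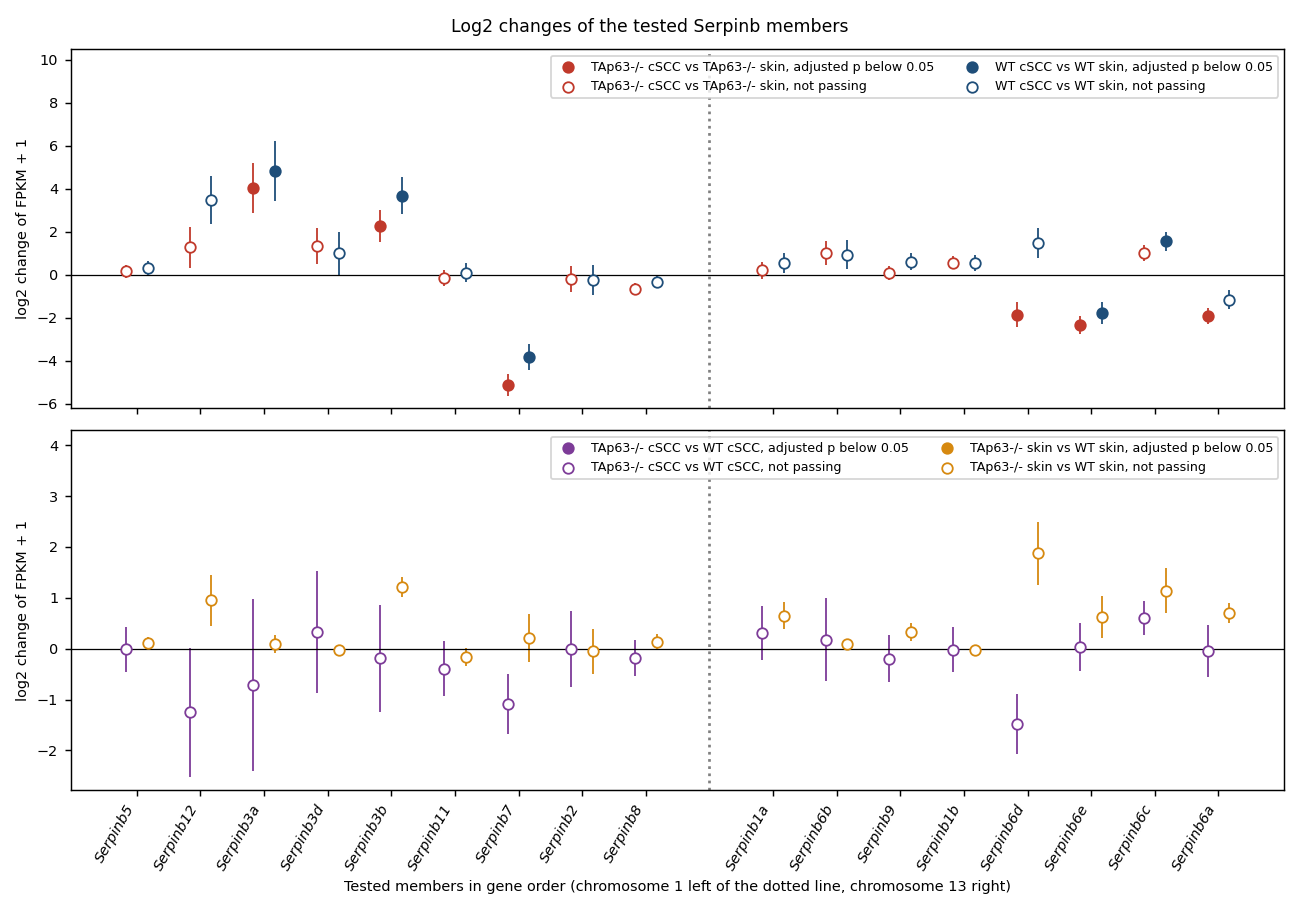
Log2 change of FPKM + 1 with its standard error for the 17 tested members in gene order, tumour against skin above and TAp63-/- against WT below, with filled points for adjusted p below 0.05. In the upper panel Serpinb3a and Serpinb3b are filled above 0 and Serpinb7 and Serpinb6e below 0 in both genotypes, and in the lower panel no point is filled.

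The changes altered the make-up of the family's RNA, taken as each gene's share of the summed FPKM of all members. That sum was 596 to 952 FPKM in TAp63-/- cSCC and 868 to 1258 FPKM in TAp63-/- skin, and 568 and 758 FPKM in WT cSCC against 637 to 909 FPKM in WT skin. Serpinb6a made up 8.12% to 38% of it in the tumours and 41.6% to 54.9% in skin. Serpinb7 made up 0.0832% to 1.39% in tumours and 7.99% to 17.5% in skin. Serpinb3a to Serpinb3d together made up 40.7%, 2.21%, 1.35% and 13.8% in TAp63-/- cSCC and 5.56% and 13.5% in WT cSCC, against at most 0.434% in any skin library. Serpinb5 was the leading member in 4 of the 6 tumours, Serpinb3a led in TAp63-/- cSCC 1 and Serpinb2 in TAp63-/- cSCC 2. These shares are sums of a normalized unit and carry no counting error.

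**Figure D3:**
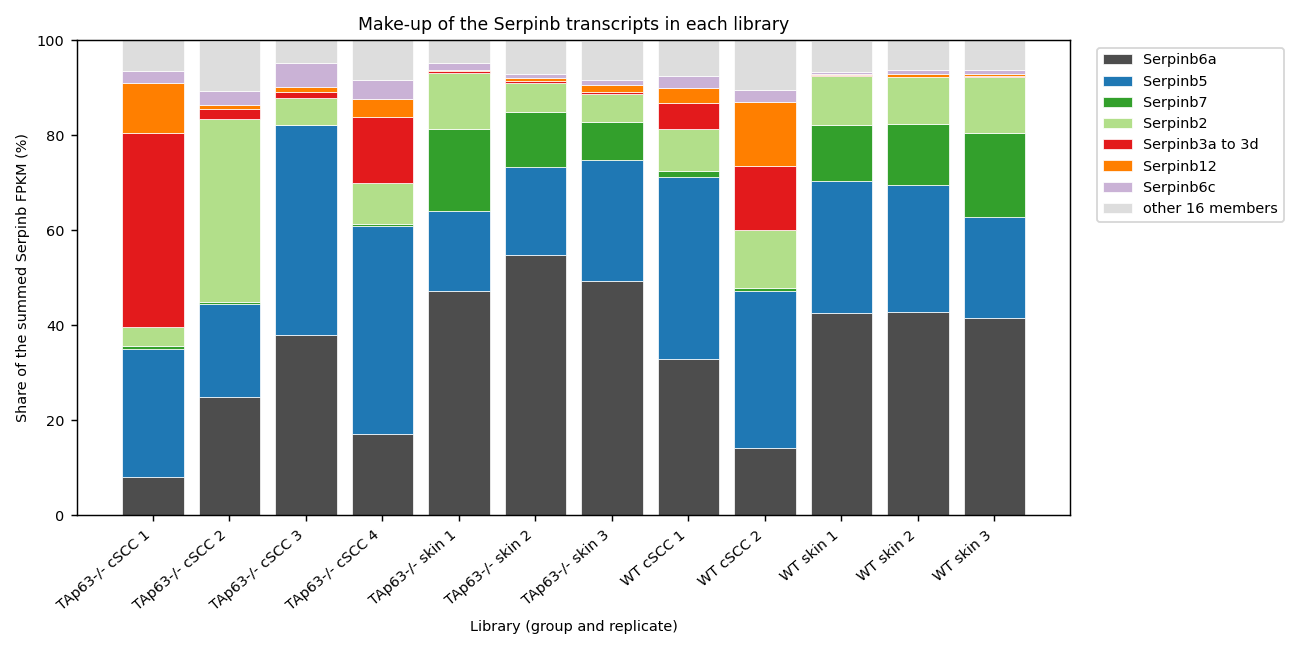
Share of the summed FPKM of all 26 members, in percent, for each of the 12 libraries. Serpinb6a, Serpinb5, Serpinb7, Serpinb2, Serpinb12 and Serpinb6c are drawn singly, Serpinb3a to Serpinb3d as a single part, and the other 16 members are pooled. Serpinb6a is the largest part of every skin bar at 41.6% to 54.9%. In the tumours the largest part is Serpinb5 in 4 bars, Serpinb3a to Serpinb3d in TAp63-/- cSCC 1 and Serpinb2 in TAp63-/- cSCC 2.

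The genotypes were compared within each tissue. In TAp63-/- cSCC against WT cSCC, limma called 0 of the 17 tested members and 0 of all genes (0%). At an unadjusted p under 0.05 there were Serpinb6d and 419 of all genes. Serpinb6d differed by -1.48 ± 0.59 (limma's unadjusted p = 0.0421, adjusted p = 1). The standard errors were wide for the members that varied among tumours: Serpinb3a differed by -0.72 ± 1.69 and Serpinb12 by -1.25 ± 1.27. Values on that scale do not show that the genotypes were alike. Serpinb7 was 0.59 to 6.41 FPKM in TAp63-/- cSCC and 5.38 and 7.89 FPKM in WT cSCC, a difference of -1.09 ± 0.59. With 3 members outside the range of the other genotype (Serpinb9b higher, Serpinb1c and Serpinb9f lower), all at low values and untested, the shares over tested genes were 5.71% higher and 4.14% lower.

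In TAp63-/- skin against WT skin, limma again called 0 of the 17 tested members, while 3 of all genes were called (0.0203%). At an unadjusted p under 0.05 there were 4 members and 738 of all genes. The 4 members, Serpinb3b, Serpinb6d, Serpinb6c and Serpinb6a, were also those whose TAp63-/- libraries all lay above the WT libraries, where 6.77% of tested genes did so, and 0 members lay below, where 3.85% did. Serpinb3b, at 3.41, 3.45 and 3.52 FPKM in TAp63-/- skin against 0.483, 0.972 and 1.43 FPKM in WT skin, differed by 1.21 ± 0.19 (unadjusted p = 0.000768, adjusted p = 0.831). Serpinb6a, at 594, 552 and 428 FPKM in TAp63-/- skin against 270.3, 317 and 378 FPKM in WT skin, differed by 0.70 ± 0.19 (adjusted p = 0.923). Serpinb6d differed by 1.88 ± 0.62 and Serpinb6c by 1.14 ± 0.44, both with an adjusted p of 0.923. All 4 were higher in 3 of 3 TAp63-/- libraries and failed the correction over all genes. The tumour change was not shown to differ between genotypes for any tested member by the interaction term, which called 0 members and 4 of all genes (0.0271%), with 1 member, Serpinb6d, and 444 genes at an unadjusted p under 0.05. Both tumour-skin comparisons and both genotype comparisons share libraries, so their values are not independent of each other.

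Proteases of the kinds that these serpins inhibit were described by list. Among membrane and secretory-pathway serine proteases all 12 were tested. In TAp63-/- mice 6 rose and 1 fell, where over all tested genes 13.0% rose and 14.2% fell. In WT mice 4 rose and 0 fell, where over all genes 4.66% rose and 6.77% fell. Tmprss11a, Tmprss11d, Tmprss11g and Tmprss11bnl stayed under 1 FPKM in every skin library and met the filter through tumour libraries only. Such genes can hardly show a fall, so these counts favour a rise. Tmprss11bnl rose to 30.6, 81, 7.46 and 22.3 FPKM in TAp63-/- cSCC, against 0, 0.16 and 0.34 FPKM in TAp63-/- skin (4.53 ± 0.58, adjusted p = 0.0003). In WT cSCC it rose to 20.3 and 9.43 FPKM, against 0.0746, 0.074 and 0.0638 FPKM in WT skin (3.80 ± 0.70, adjusted p = 0.00694). Tmprss11d, an airway-type trypsin-like protease, rose by 2.28 ± 0.31 in TAp63-/- mice (adjusted p = 0.000475) and by 2.78 ± 0.38 in WT mice (adjusted p = 0.0015). Furin, the proprotein convertase that human SERPINB8 inhibits, rose by 0.99 ± 0.16 in TAp63-/- mice (adjusted p = 0.00138) and by 0.87 ± 0.19 in WT mice (adjusted p = 0.0166). Tmprss11f was the member of that list that fell, by 1.87 ± 0.28 in TAp63-/- mice (adjusted p = 0.000859).

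Among the cysteine cathepsins, lysosomal proteases within reach of Serpinb3-type inhibitors, 10 of 10 were tested. In TAp63-/- mice 0 rose and 4 fell (Ctsk, Ctsh, Ctso and Ctsf), and in WT mice 0 rose and Ctsk alone fell, right at the threshold (-1.69 ± 0.49, adjusted p = 0.05). Over all genes 14.2% fell in TAp63-/- mice and 6.77% in WT mice, and 1 of 10 is near that WT share. Ctsk, best known from osteoclasts and fibroblasts, fell by 2.45 ± 0.41 in TAp63-/- mice (adjusted p = 0.00164) and stood at 27.1 to 105 FPKM in TAp63-/- cSCC, against 201 to 376 FPKM in TAp63-/- skin. The fibroblast marker sum was lower in the same tumours, as given with the groups. Ctsc, which activates granule serine proteases, stood at 136 to 480.0 FPKM in TAp63-/- cSCC and 100.2 to 166 FPKM in TAp63-/- skin and did not pass (adjusted p = 0.0686).

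Neutrophil serine proteases were low: Elane, Ctsg and Prss57 did not reach 1 FPKM in any library and only Prtn3 was tested, without passing. Of 10 granzymes 6 were tested and 0 passed in either genotype. Gzmb, the target of Serpinb9, stood at 0.497 to 7.12 FPKM in TAp63-/- cSCC and 0.0775 to 1.21 FPKM in TAp63-/- skin (1.19 ± 0.50, adjusted p = 0.102). Gzme and Gzmd were listed at 0 in all 6 skin libraries and reached 12.9 and 3.12 FPKM in TAp63-/- cSCC 4. Of the 6 mast cell chymases and tryptases 2 rose in TAp63-/- mice, where 13.0% of all tested genes rose, and 0 in WT mice. Those were Mcpt2, at 0.261, 49.6, 11.5 and 11.2 FPKM in TAp63-/- cSCC (adjusted p = 0.0194), and Mcpt1, at 0.117, 69.6, 4.64 and 8.39 FPKM (adjusted p = 0.0478), both listed at 0 in all TAp63-/- skin libraries. Mcpt2 and Mcpt1 met the filter through tumour libraries only. Their highest values, like that of Serpinb2, stood in TAp63-/- cSCC 2.

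**Figure D4:**
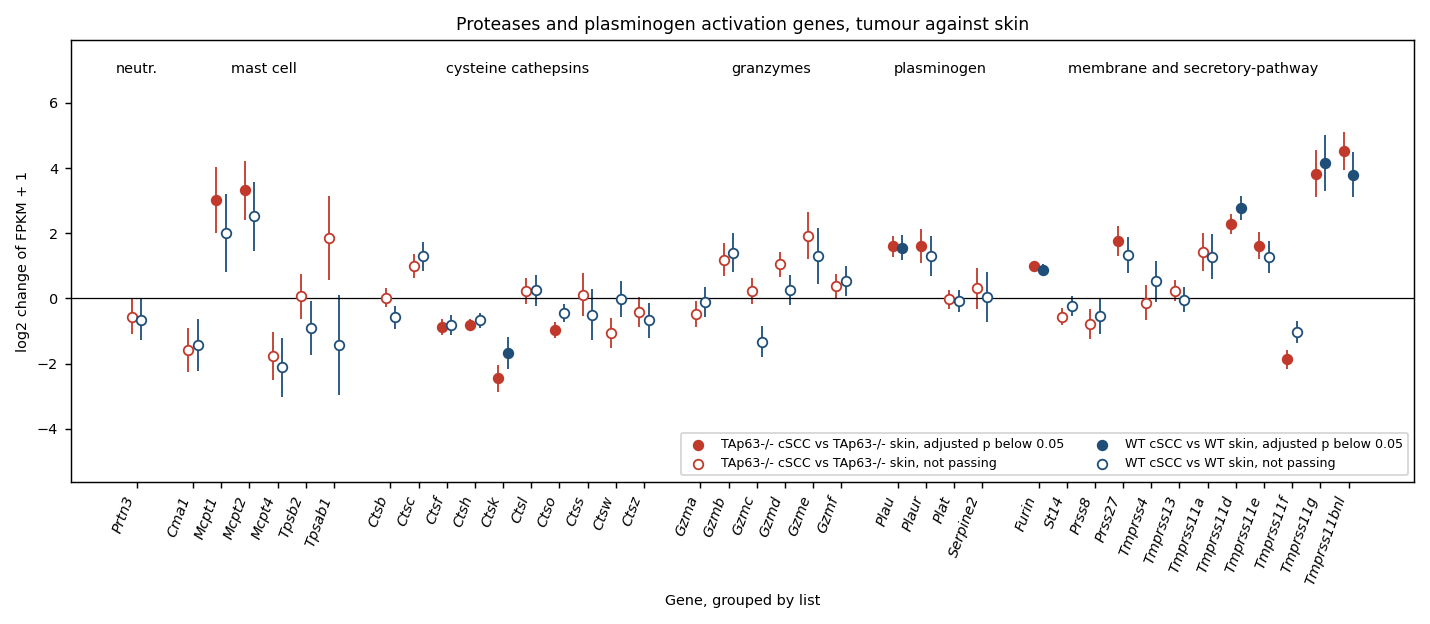
Log2 change of FPKM + 1 with its standard error for the tested genes of 6 protease lists, tumour against skin in TAp63-/- and in WT mice, with filled points for adjusted p below 0.05. Tmprss11g and Tmprss11bnl are the highest filled points, and Ctsk is the lowest, in both genotypes.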

How the data were processed

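Total RNA was prepared for sequencing with the Illumina TruSeq kit, per the labels' protocols. The submitters' processing notes name TopHat2 2.0, Cufflinks 2.0 and the build mm10. The table deposited by the authors was read as FPKM, which is what Cufflinks gives and what the values resemble. Quantile normalization by the authors was inferred because the sorted values at or above 1 are the same in all 12 columns within 1%, and it is recorded in no label. Depth is unknown and no interval is given.

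The 37924 entries were summed by symbol (34303). The 14752 genes that held 1 FPKM or more in 2 or more libraries were fitted as log2(FPKM + 1) by limma 3.58.1 (R 4.3.3), with a mean-variance trend and two-sided Benjamini-Hochberg adjustment. The script was tested on simulated data. Tumour-skin comparisons and the interaction used all 12 libraries, and genotype comparisons the 6 of that tissue. Members, gene lists and alternatives were chosen with earlier results of these data known. Members reaching 5 FPKM or called in a comparison were given per library, and up to 4 genes per list with the smallest p were named. Other settings tried were the pseudocount, the filter, rescaling, the libraries fitted, array weights, no trend, sex and leaving out each library. Shared words of 50 bases were counted in GENCODE M21 transcripts. A listed gene is not reported here.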

Additional observations from a re-analysis of the deposited data

Results flagged for a closer look

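In TAp63-/- cSCC, the group of 4 libraries, a single library stood apart for 5 of the 18 members that reached 1 FPKM there, by a gap to its neighbour wider than Dixon's 95% limit for the range. The gap was taken on FPKM, not on log2(FPKM + 1). Chance would flag about 1 group in 20 only if FPKM were normally distributed, and skewed values are flagged more often. The 5 of 18 is therefore not set against that rate. TAp63-/- cSCC 1 held 325 FPKM of Serpinb3a, a gap of 0.952 of the range, and 15.9 FPKM of Serpinb3d, a gap of 0.888. TAp63-/- cSCC 2 held 229 FPKM of Serpinb2, a gap of 0.888, 13.8 FPKM of Serpinb6b, a gap of 0.95, and 9.95 FPKM of Serpinb9, a gap of 0.949. TAp63-/- cSCC 1 was the only tumour read as male and held the highest neutrophil list sum, most of it S100a8 and S100a9. Cxcr2 and Csf3r of that list were highest in TAp63-/- cSCC 2. TAp63-/- cSCC 2 also held the highest macrophage and mast cell sums of the tumours. The part of any of these in the values was not tested.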

How the results depend on the processing

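The number of members called in TAp63-/- cSCC against TAp63-/- skin was 6, was 3 with only those groups in the fit, and ran from 3 to 8 when a library was left out. In WT cSCC against WT skin it was 5, was 2 with genes of at least 0.1 FPKM tested and 3 with sex as a covariate, and ran from 1 to 2 when a library was left out, where a lone WT cSCC library is assumed to vary like the other groups. The cause was not tested. Both genotype comparisons and the interaction called 0 members under every alternative run. No called change turned its sign. Of 1226 values of single members under alternatives, 52 lost their call and 9 gained it. Serpinb7 kept its call in 15 of 15 alternatives in TAp63-/- mice and in 12 of 13 in WT mice, and Serpinb6a in 15 of 15 in TAp63-/- mice. With sex as a covariate, Serpinb12 and Serpinb3d passed in both genotypes. In that fit TAp63-/- cSCC 1, the only male tumour, carries the sex term, and it held the highest value of both genes among TAp63-/- cSCC. No paired analysis was possible because the labels give the libraries no shared replicate numbers. Depth is unknown, so low values such as those of the Serpinb9 copies have no stated precision.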

Other observations

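Serpinb10, which carried another gene category and overlaps Serpinb2, stood at 9.27, 33.9, 9.84 and 8.91 FPKM in TAp63-/- cSCC and 13.1, 5.28 and 5.28 FPKM in TAp63-/- skin. It stood at 16.9 and 5.14 FPKM in WT cSCC, against 4.43, 5.89 and 11.2 FPKM in WT skin. Its highest value, like that of Serpinb2, was in TAp63-/- cSCC 2.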
